A study of Mus musculus with 192 samples.

Results

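Irg1, also named Acod1, encodes the mitochondrial enzyme aconitate decarboxylase, which makes itaconate from the tricarboxylic acid (TCA) cycle intermediate cis-aconitate. The gene was taken by its symbol and is 1 of the 23481 genes counted and 1 of the 4720 with enough counts to be tested. It is described here across mouse dendritic cells exposed for 6 h to 7 ligands of innate immune receptors, which recognise molecules typical of microbes. The cells were grown with GM-CSF from the bone marrow of female C57BL/6J mice aged 6 to 8 weeks, and each well was plated with 100000 cells. The libraries form 64 groups of 3: a control group (Ctrl), 7 single ligands, all 21 pairs and all 35 triplets. The ligands carry the names of the labels: PAM, LPS (lipopolysaccharide), HMW, Zymosan (labelled as zymosan depleted), SeV, cGAMP (labelled 3',3'-cGAMP) and CpGB. All 64 groups share the strain, the growth factor and the time, the labels state no dose, and they do not say whether replicates came from separate animals or cultures, so p-values refer to the spread between these libraries.

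Itaconate production is a known feature of macrophages and dendritic cells activated through innate receptors. Itaconate inhibits succinate dehydrogenase, and forms of it modify cysteines of proteins such as Keap1, which releases the transcription factor Nrf2. It also inhibits isocitrate lyase, an enzyme of the glyoxylate shunt of many bacteria. Transcription of Irg1 is known to respond to Toll-like receptor ligands and to interferons.

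On the GRCm38 assembly (mm10), Irg1 (ENSMUSG00000022126.6) lies on the plus strand at chr14:103046977-103056573 and has 5 exons and 1464 coding bases. No other annotated gene overlaps it. The bases before the first annotated exon are shown because the comparisons below concern mainly the RNA made from this gene. The stretch covers chr14:103046762-103046976 on the plus strand of the RefSeq promoter table (GRCm38.p6), 5′ to 3′, with motif matches in capitals.
Irg1 promoter: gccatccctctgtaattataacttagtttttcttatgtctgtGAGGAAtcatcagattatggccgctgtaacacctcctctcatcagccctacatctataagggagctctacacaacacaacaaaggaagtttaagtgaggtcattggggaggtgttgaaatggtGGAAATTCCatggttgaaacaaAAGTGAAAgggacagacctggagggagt
From 5′ to 3′, the capitals mark GAGGAA (the core letters bound by PU.1), GGAANTTCC (a kappa-B type site of NF-kappa-B factors) and AANNGAAA (a half-site of interferon regulatory factors). The letters were chosen after this promoter had been read, and both strands of the 250 bases before the RefSeq start were searched.

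GGAANTTCC stood 85 to 77 bases before that start and was found in 0.813% of 32851 promoters. AANNGAAA stood 63 to 56 bases before it and was found in 21.3% of promoters, and GAGGAA in 23.3%. TATAAA, the TATA box, stood 28 to 23 bases before it (12.4% of promoters), downstream of the printed stretch because the RefSeq start lies 35 bases inside the first annotated exon. No match was found for the core of the interferon-stimulated response element (2.98% of promoters), TGANTCA (AP-1, 6.75%) or TTGCNNAA (C/EBP, 9.56%). A match describes letters and not binding.

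The libraries were shallow and uneven, with 46564 to 610234 UMI counts and a median of 171616.5. Irg1 was counted in every library, with 29 to 2947 UMIs and a median of 612, and the 3 Ctrl libraries held 29, 38 and 38. Of the markers of the labelled cell type, the summed level of 10 dendritic cell genes was 4552 to 4889 CPM (counts scaled to a common library total with TMM factors) in Ctrl and 4436 to 7136 CPM over the 64 group means. Their Ctrl means were 1525 CPM for H2-Ab1, 1365 for H2-Eb1, 774 for Cd74, 442 for Itgam, 421 for Itgax and 148 for Ccl22. Ciita, Flt3 and Ccl17 were at 4.16, 4.62 and 3.20 CPM. Zbtb46, a defining factor of conventional dendritic cells, was at 0 in Ctrl and had 99 UMIs over all libraries. Summed group means of 9 neutrophil genes were 603 to 1046 CPM over the 64 groups, and those of 8 macrophage or monocyte genes 7412 to 13296 CPM, with 11450 to 12702 CPM in the Ctrl libraries. Of these macrophage or monocyte genes, Lyz2 was at 9450 CPM in Ctrl and Mertk at 0. The part of other cell types in the Irg1 values was not tested. In bulk libraries, more cells that express Irg1 and more Irg1 RNA per cell cannot be told apart.

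Irg1 rose with 6 of the 7 single ligands, from 413 ± 55.5 CPM in Ctrl (SD, n = 3) to between 1164 ± 229 CPM with Zymosan and 3894 ± 379 CPM with LPS. Ctrl libraries were at 402, 474 and 365 CPM. With LPS the values were 3588, 4317 and 3776 CPM, with cGAMP 4246, 3377 and 3222, and with CpGB 2397, 2829 and 2564. LPS and cGAMP therefore gave the highest levels among the single ligands, and no stimulated library fell among the Ctrl libraries.

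PAM gave 2349, 2368 and 2367 CPM, the narrowest spread of the 8 groups without a combination. SeV gave 2599, 2184 and 2125 CPM, and Zymosan 1058, 1427 and 1008. HMW gave 632, 901 and 600 CPM. The HMW libraries were the lowest stimulated ones, yet all 3 lay above all 3 Ctrl libraries.

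Against Ctrl, the log2 fold change was 3.24 with LPS (SE 0.16), 3.13 with cGAMP (SE 0.16), 2.66 with CpGB (SE 0.16), 2.52 with PAM (SE 0.16), 2.48 with SeV (SE 0.16) and 1.50 with Zymosan (SE 0.17). The adjusted p was 2.60e-54 for LPS and 3.43e-15 for Zymosan by the quasi-likelihood test of edgeR, with Benjamini-Hochberg adjustment over all tested genes. A call against Ctrl required an adjusted p under 0.05 and a log2 fold change of 1 or more in size. Over all genes and the 7 ligands, 8.7% of such tests were called higher and 4.95% lower. With HMW the log2 fold change was 0.81 (SE 0.17, adjusted p = 0.000507 by edgeR), under that fold threshold, and without HMW replicate 2 it was 0.60 (adjusted p = 0.131). HMW is the ligand with the fewest higher calls over all genes (0.953%, against 14.6% for LPS, with 0.0212% lower).

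Compared with each other, 17 of 21 pairs of single ligands differed in Irg1 at an adjusted p under 0.05, where 18.8% of tests over all genes did. The 4 pairs that did not pass were LPS and cGAMP, PAM and CpGB, PAM and SeV, and SeV and CpGB. LPS exceeded cGAMP by 0.11 on the log2 scale (95% interval -0.10 to 0.33, adjusted p = 0.582). The order by mean was thus HMW, Zymosan, then SeV, PAM and CpGB, then cGAMP and LPS, with steps called between these 4 sets (cGAMP exceeded CpGB by 0.47, adjusted p = 0.000431, SeV exceeded Zymosan by 0.98, adjusted p = 1.21e-12, and Zymosan exceeded HMW by 0.69, adjusted p = 1.08e-05). The step from CpGB to cGAMP was lost without replicate 1 of all groups (0.26, adjusted p = 0.170 by edgeR).

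All 56 pairs and triplets raised Irg1 against Ctrl, where 14.9% of tests over all genes were called higher. Their log2 fold changes ran from 1.95 with PAM+Zymosan to 4.10 with PAM+HMW+cGAMP. The median of the group means was 2361 CPM for single ligands, 3737 CPM for pairs and 4002 CPM for triplets, so the step from 1 to 2 ligands was larger than that from 2 to 3.

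PAM+HMW+cGAMP was the highest group, with 6829, 7511 and 6772 CPM, followed by PAM+cGAMP+CpGB (6483 ± 528 CPM), PAM+SeV+cGAMP (6323 ± 131 CPM) and PAM+cGAMP (6215 ± 284 CPM). PAM+Zymosan was the lowest combination, with 1284, 1694 and 1743 CPM, all under the 3 PAM libraries and overlapping those of Zymosan alone. PAM+Zymosan+CpGB (2153 ± 159 CPM) and HMW+Zymosan (2209 ± 16.0 CPM) came next. cGAMP was in 9 of the 10 highest groups and in none of the 10 lowest combinations, while Zymosan was in none of the 10 highest and in 8 of the 10 lowest.

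**Figure D1:**
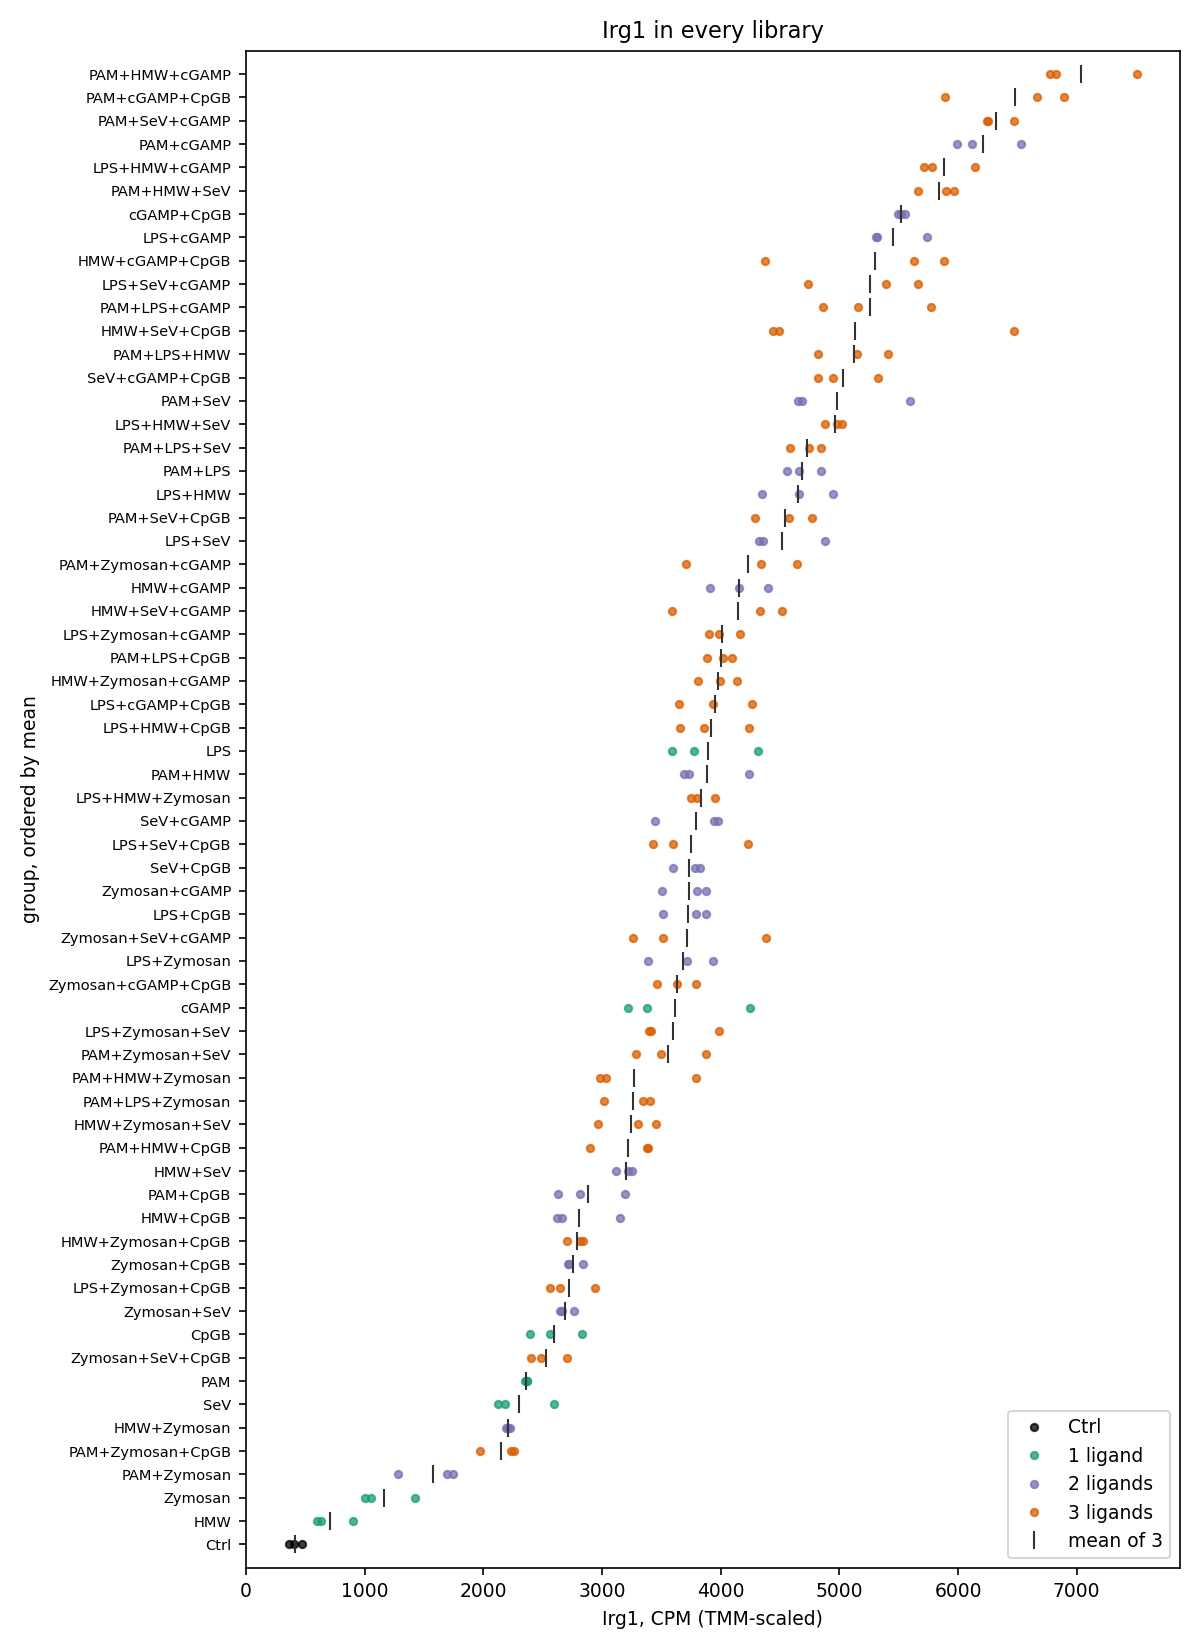
Irg1 in each library (CPM, TMM-scaled, horizontal axis from 0), with the 64 groups ordered by mean on the vertical axis and coloured by the number of ligands; short vertical bars are means of 3 libraries. The Ctrl libraries lie at the bottom, between 365 and 474 CPM, below all stimulated libraries, and the highest group is PAM+HMW+cGAMP.

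Most neighbours in this order overlapped. Of the 63 steps between adjacent groups, 57 had overlapping libraries, which does not exclude a difference between their means. The 6 steps without overlap lay above Ctrl, HMW, PAM+Zymosan, PAM, PAM+LPS+SeV and cGAMP+CpGB. The largest SD in CPM was in HMW+SeV+CpGB, whose libraries were at 6475, 4438 and 4490 CPM, and the largest relative to the mean was in HMW (23.3% of the mean).

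To ask what each ligand adds in the presence of others, each triplet was compared with its pairs and each pair with its single ligands. This gives 21 additions per ligand and 147 in all. An addition is a difference between separate groups, all at 6 h, and not a later treatment of the same cells. Irg1 was higher in 64 additions, lower in 12 and not called for 71, with the threshold at an adjusted p of 0.05. Across all tested genes, 4.49% of these tests were called higher and 2.45% lower. No Ctrl library enters these comparisons, though additions share groups with one another. With every library thinned to 46564 UMIs, 20 additions were called higher and 0 lower. The 12 additions called lower before kept negative log2 differences when thinned, from -0.87 (Zymosan on PAM+cGAMP) to -0.19 (CpGB on LPS+Zymosan).

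Adding cGAMP, a cyclic dinucleotide that activates the adaptor STING, raised Irg1 in 17 of 21 cases and lowered it in none (7.54% of tests higher and 4.22% lower over all genes). Added to PAM it raised Irg1 from 2361 ± 10.7 to 6215 ± 284 CPM (log2 difference 1.40, adjusted p = 2.74e-26 by edgeR). Its 4 uncalled additions were all to pairs with LPS, namely LPS+CpGB, LPS+Zymosan, PAM+LPS and LPS+SeV, where the log2 difference was 0.08 to 0.22. Without replicate 3 of all groups, 11 additions of cGAMP were called higher.

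LPS, the ligand of Tlr4, raised Irg1 in 15 of 21 additions (8.33% of tests higher and 5.4% lower over all genes) and lowered it in 1. The additions that raised it ran from 0.40 on the log2 scale, on PAM+HMW, to 2.69 on HMW. On cGAMP+CpGB it went the other way: the pair was at 5518, 5492 and 5550 CPM and the triplet with LPS at 3933, 4261 and 3652 CPM (log2 difference -0.48, adjusted p = 0.00126 by edgeR). All 3 triplet libraries lay below all 3 libraries of the pair, and without replicate 3 of all groups the call was lost (-0.42, adjusted p = 0.152).

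PAM and SeV each raised Irg1 in 9 of 21 additions and lowered it in none (over all genes, 3.95% of tests higher and 2.35% lower for PAM, and 3.7% and 1.22% for SeV). PAM and SeV alone were at 2361 ± 10.7 and 2303 ± 259 CPM, a log2 difference of 0.04 (95% interval -0.18 to 0.27), and together they reached 4976 ± 534 CPM. SeV added to PAM gave a log2 difference of 1.08 (adjusted p = 2.21e-17), and PAM added to SeV one of 1.12 (adjusted p = 7.57e-18). None of the additions of PAM to LPS or to a pair with LPS was called, and the same held for SeV.

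CpGB raised Irg1 in 9 of 21 additions (3.4% of tests higher and 1.99% lower over all genes) and lowered it in 2. The lower calls were on LPS+cGAMP (log2 difference -0.47, adjusted p = 0.00285) and on LPS+Zymosan (-0.44, adjusted p = 0.0173). Neither passed without replicate 1, 2 or 3 of all groups, at log2 differences of -0.44 to -0.38 on LPS+cGAMP and -0.47 to -0.35 on LPS+Zymosan. On cGAMP alone it raised Irg1 to 5520 ± 28.8 CPM (log2 difference 0.62, adjusted p = 1.35e-06).

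HMW raised Irg1 in 4 of 21 additions, against 0.631% of tests over all genes, and lowered it in none (0.0858% over all genes). Its sign was positive in 20 of 21. On PAM it raised the libraries from 2349, 2368 and 2367 CPM to 3693, 4235 and 3732 CPM (log2 difference 0.72, adjusted p = 4.78e-08). On Zymosan it raised them to 2194, 2207 and 2226 CPM (0.92, adjusted p = 1.38e-10), and on PAM+Zymosan from 1574 ± 252 to 3271 ± 451 CPM (1.04, adjusted p = 5.72e-15). In these 3 cases the groups did not overlap, although HMW alone reached only 711 ± 166 CPM. On SeV the libraries went from 2599, 2184 and 2125 to 3255, 3121 and 3221 CPM, also without overlap. The difference on SeV was not called (0.48, adjusted p = 0.0579 by edgeR, and 0.000908 when adjusted over all additions together). The fourth call, on SeV+CpGB (log2 difference 0.45, adjusted p = 0.00995), rested on HMW+SeV+CpGB replicate 1 and was 0.26 without it (adjusted p = 0.739 by edgeR).

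Zymosan, which raised Irg1 when given alone, had the most lower calls of the 7 ligands. It lowered Irg1 in 9 of 21 additions, where 1.91% of tests over all genes were called lower and 3.91% higher, and raised it in 1, on HMW (log2 difference 1.62). The largest fall was on cGAMP+CpGB, from 5520 ± 28.8 to 3633 ± 164 CPM (log2 difference -0.60, adjusted p = 7.91e-06 by edgeR). On PAM it lowered Irg1 from 2361 ± 10.7 to 1574 ± 252 CPM (-0.57, adjusted p = 0.000127), and on PAM+cGAMP from 6215 ± 284 to 4232 ± 476 CPM (-0.56, adjusted p = 5.04e-05).

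The other 6 lower calls were on SeV+CpGB, PAM+LPS, PAM+SeV, LPS+CpGB, LPS+cGAMP and PAM+CpGB, with log2 differences of -0.56 to -0.43. Of the 15 backgrounds without HMW, 9 were called lower with Zymosan, with a median log2 difference of -0.44. Of the 6 with HMW, 0 were called lower, with values of -0.28 to 1.62. This difference between backgrounds was not tested. Of the 9 lower calls, 5 remained without each replicate number in turn: those on PAM, PAM+LPS, PAM+cGAMP, SeV+CpGB and cGAMP+CpGB. With libraries thinned none of the 9 was called, at log2 differences of -0.87 (Zymosan added to PAM+cGAMP) to -0.36 (added to PAM+LPS).

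**Figure D2:**
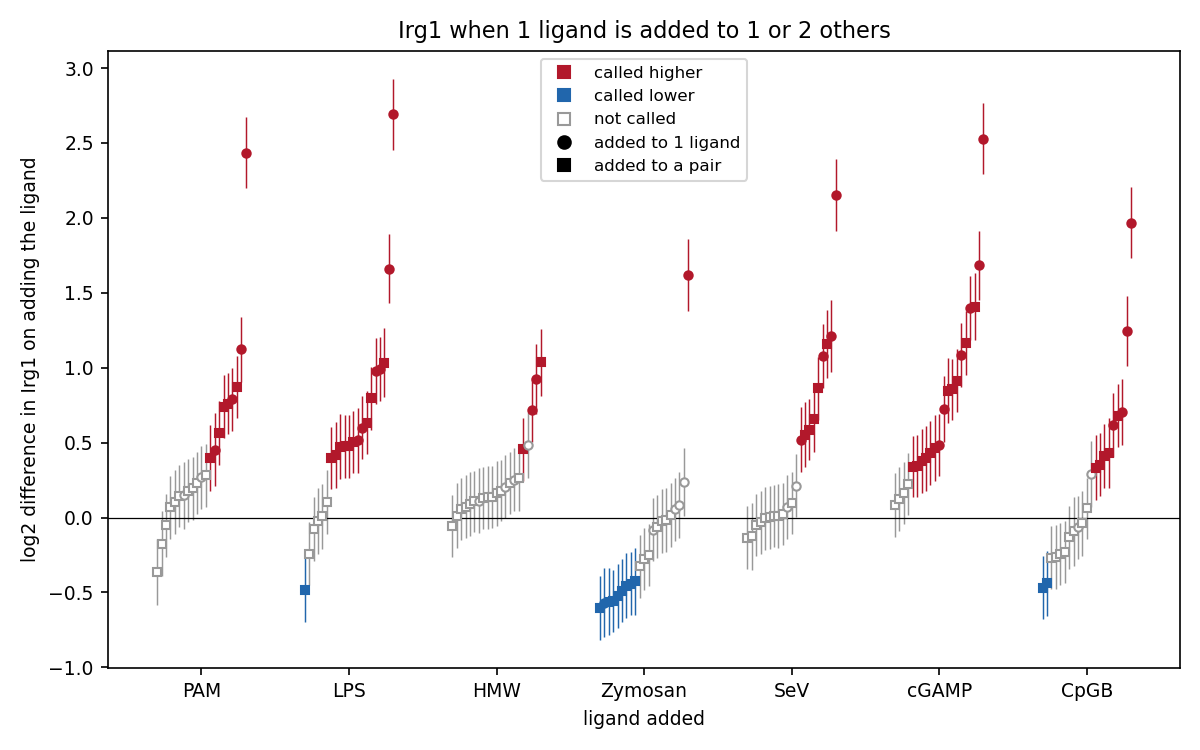
Log2 difference in Irg1 on adding 1 ligand (horizontal axis) to a single ligand (circles) or to a pair (squares), with 95% intervals from the fit; red and blue mark calls at an adjusted p under 0.05 and open grey symbols the rest. Zymosan is the ligand with the most blue symbols, 9 of its 21, and cGAMP has the most red ones, 17 of 21.

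In 7 of the 21 pairs Irg1 was called above both single ligands: PAM+HMW, PAM+SeV, PAM+cGAMP, LPS+cGAMP, HMW+Zymosan, SeV+CpGB and cGAMP+CpGB. LPS+cGAMP lost this call without replicate 3 of all groups (0.42 over LPS, adjusted p = 0.0989 by edgeR) and SeV+CpGB without replicate 1 (0.45 over CpGB, adjusted p = 0.0714), and 1 pair kept it with libraries thinned. PAM+Zymosan was the 1 pair called below one of its ligands. Among the 35 triplets, HMW+SeV+CpGB was the 1 called above all 3 of its pairs, a call that was lost without replicate 1 or 3 of all groups, and 9 were called below at least 1 pair. None of the 56 combinations was called below all of its components. The shares of these joint calls over all genes were not computed, so whether such counts are unusual for a gene is not known.

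Pair interactions were computed as the sum of pair and Ctrl less the 2 single ligands, in log2 units, where 0 means that the fold changes multiply. Irg1 had 15 of 21 called negative and 0 positive, against 3.5% and 1.08% of tests over all genes. The most negative were LPS+CpGB (-2.73, SE 0.19, adjusted p = 3.04e-31 by edgeR) and LPS+cGAMP (-2.64, SE 0.19). The 6 that were not called were the 6 pairs with HMW, from -0.70 with HMW+CpGB (adjusted p = 0.0543 by edgeR, and 0.0189 when adjusted over all pair interactions together) to 0.12 with HMW+Zymosan (95% interval -0.29 to 0.53). For PAM+HMW the interaction was -0.09 (95% interval -0.49 to 0.31), so the pair lay near the product of both fold changes.

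On the linear scale the picture was mixed. Against an additive level, the Ctrl mean plus the increments of both ligands over Ctrl, 4 pairs were higher by more than 2 SE of the difference between means, 10 were lower and 7 lay within. The SE comes from the SDs of 3 libraries per group, so this is a description, without a test or an adjustment over the pairs. PAM+SeV was above its level by 726 CPM, with an SE of 344 CPM. HMW+Zymosan was at 1.51 times that level, PAM+HMW 1.46 times, HMW+SeV 1.23 times and PAM+SeV 1.17 times. PAM+Zymosan, at 0.506 times the additive level, was the farthest below, followed by LPS+CpGB at 0.613 times.

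**Figure D3:**
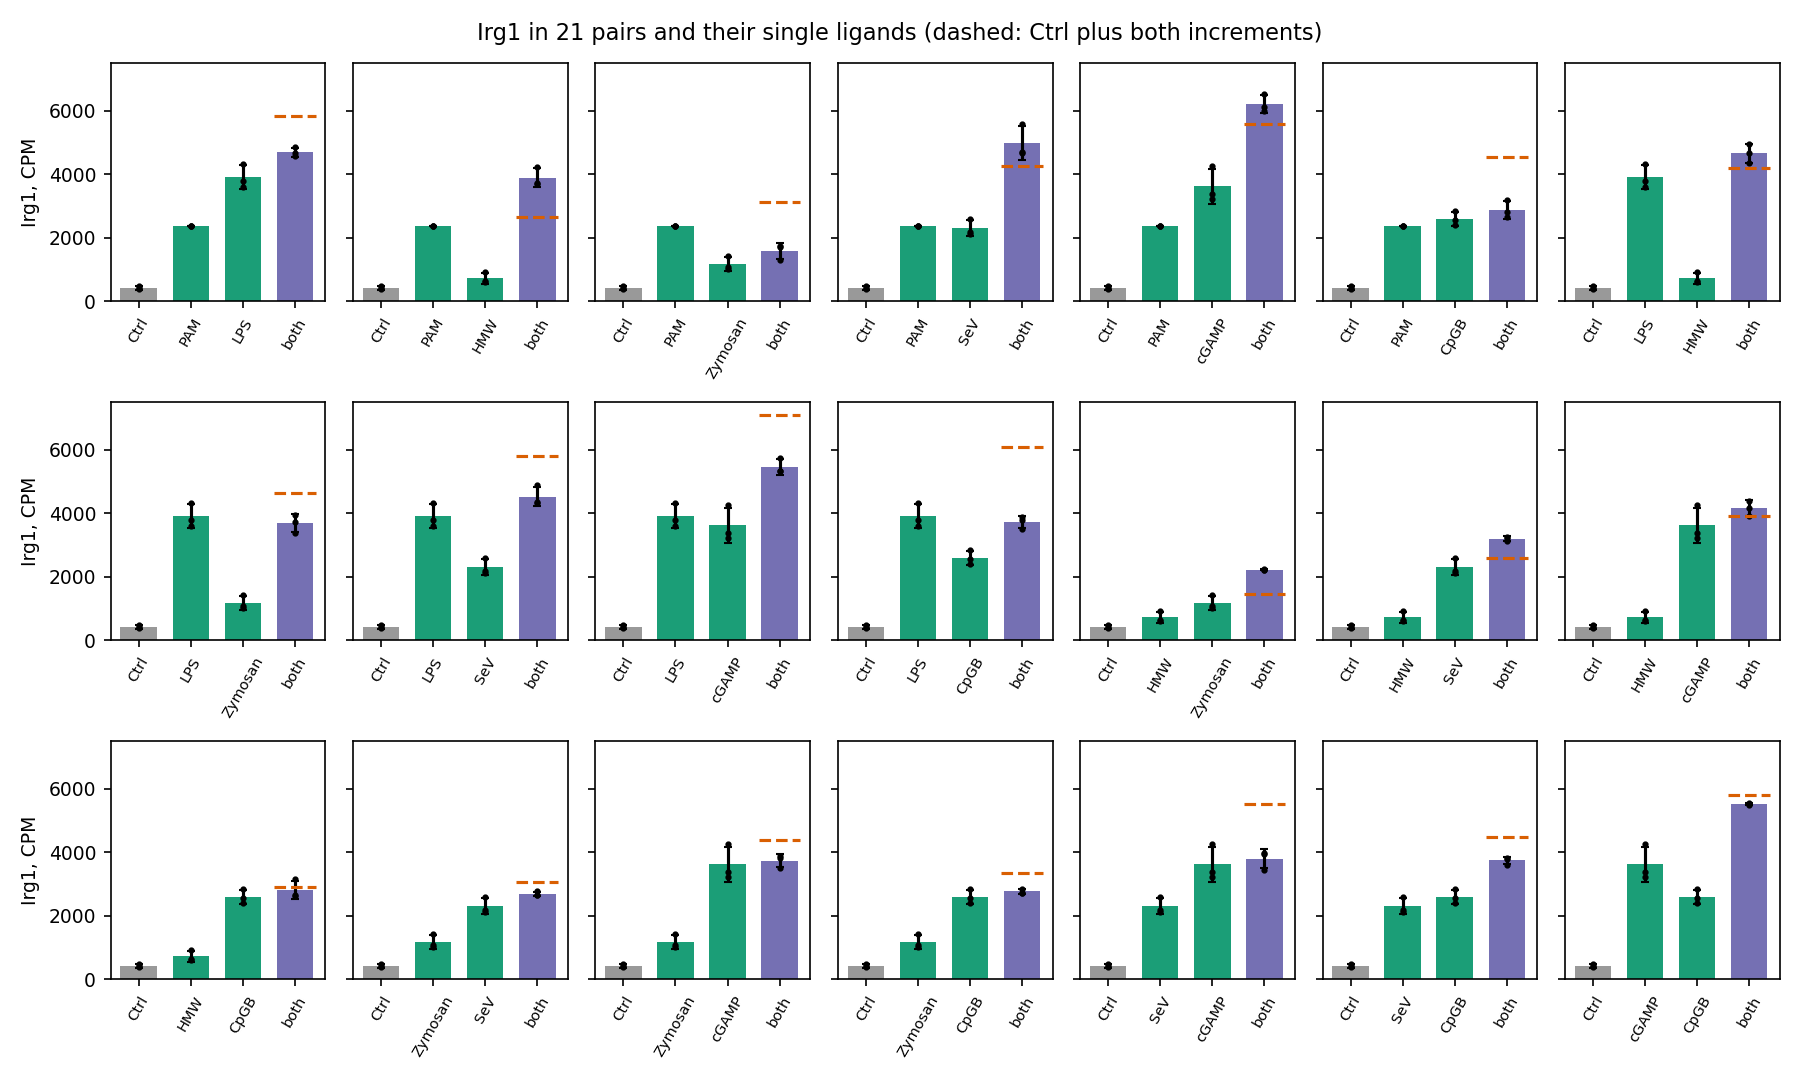
Irg1 (CPM, vertical axis from 0) in Ctrl, both single ligands and their pair for the 21 pairs; bars are means, error bars SD of 3 libraries, points single libraries, and the dashed line the Ctrl mean plus both increments over Ctrl. PAM+HMW stands above its line (1.46 times) and PAM+Zymosan below it (0.506 times).

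Three-way interactions (triplet and 3 single ligands added, 3 pairs and Ctrl subtracted, log2 scale) were called positive in 17 of 35 triplets and negative in 0, against 0.803% and 0.13% of tests over all genes. With libraries thinned, 2 were called positive. The largest were PAM+LPS+CpGB (2.21, SE 0.25, adjusted p = 5.68e-14 by edgeR, and 1.40 with an adjusted p of 0.382 when thinned) and LPS+SeV+cGAMP (2.14, SE 0.25, adjusted p = 1.12e-13). None of the 15 triplets with HMW was called, and their values ran from -0.33 to 0.67. The pair and three-way terms share groups, so their opposite signs are not separate results.

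Simple rules were set against the observed triplets by the root mean square difference in log2 fold change over the 35 triplets. The highest of the 3 pairs gave 0.305 and the mean of the pairs 0.296. The highest single ligand gave 0.498, the model of 3 pairs minus 3 single ligands 1.11, and the sum of the single effects 3.75. The lowest of the 3 pairs gave 0.664, more than the highest single ligand. By these log2 CPM means, 9 of 35 triplets exceeded their highest pair and 33 of 35 their lowest.

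**Figure D4:**
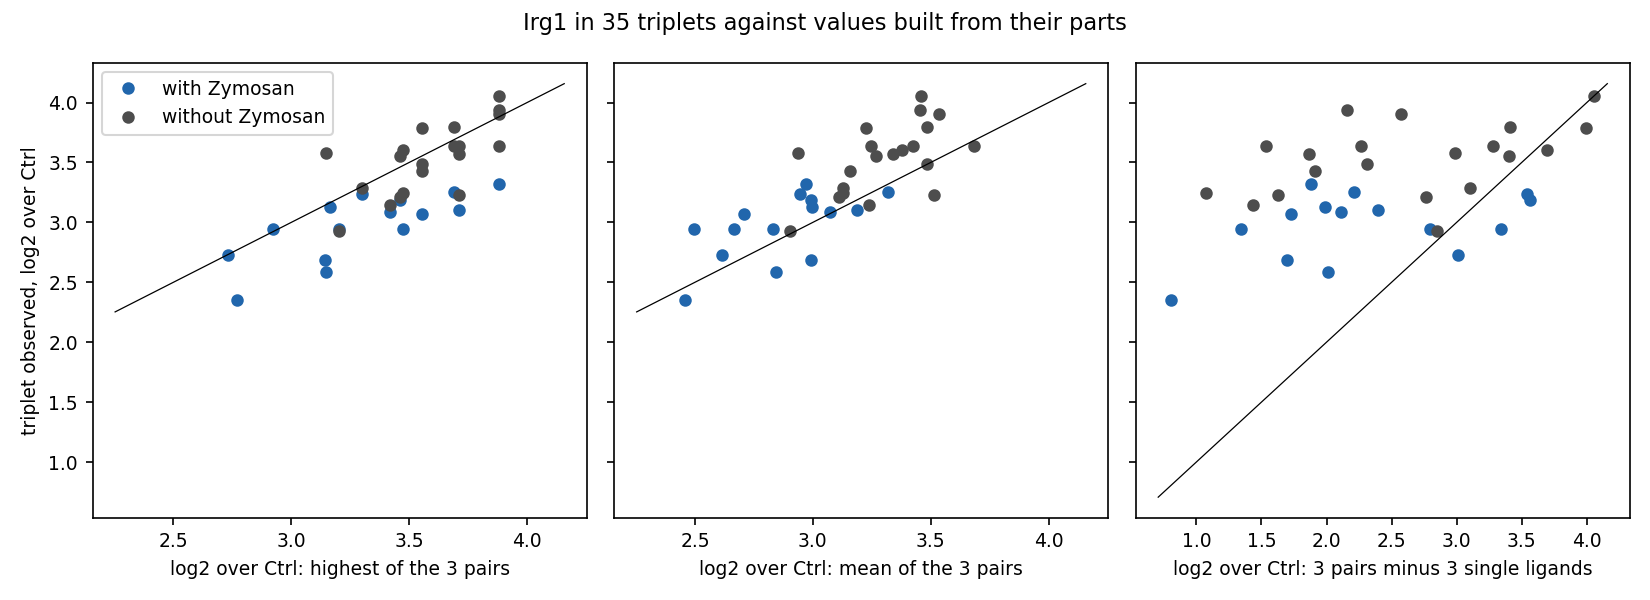
Observed Irg1 in 35 triplets (log2 over Ctrl, vertical axis) against the highest pair, the mean of the pairs, and 3 pairs minus 3 single ligands (log2 over Ctrl, horizontal axes), with the line of equality; blue points hold Zymosan. In the first panel 9 of the 35 points lie above the line, and in the third 29 do.

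Irg1 was among the genes with the most calls in these comparisons. It had 76 calls over the 147 additions, where the median tested gene had 4 and 15 genes including Irg1 had at least 76. With 15 pair interactions it was among 14 genes with at least as many, and with 17 three-way interactions among 4, where the median gene had 0 in both. Abundant genes are called more readily, and the level was not matched in this ranking.

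Genes with a pattern like that of Irg1 were ranked by Pearson correlation of log2 CPM over the 64 group means, among the 4500 genes whose mean was 20 CPM or more. The 64 means share their libraries' depth and the Ctrl group, and the values are a description. The 5 highest were Pnp (r = 0.94), a phosphorylase of purine nucleosides, Marcksl1 (0.91), an actin-linked substrate of protein kinase C, Gbp3 (0.91), an interferon-induced guanylate-binding protein, Acsl1 (0.91), a long-chain acyl-CoA synthetase, and Gch1 (0.91), the first enzyme of tetrahydrobiopterin synthesis. Of these 4500 genes, 2.42% had r over 0.8. The lowest were 4632428N05Rik (-0.86), which went from 193 ± 18.3 CPM in Ctrl to 34.8 ± 4.59 CPM with LPS, and the ribosomal protein gene Rpl10a (-0.82). By Spearman correlation 3 of the 5 highest remained among the first 5, with Gbp3 at rank 8 and Gch1 at rank 119 (rho = 0.72). Without the Ctrl group 4 remained.

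These 5 genes were chosen for following Irg1 over groups that include Zymosan, and differences between them were not tested. Zymosan lowered Acsl1 and Marcksl1 in 10 of its 21 additions each, Pnp in 5, Gbp3 in 3 and Gch1 in 0, where Irg1 had 9 and 1.91% of tests over all genes were called lower. Pnp went from 1259 ± 63.3 CPM with PAM to 709 ± 41.0 CPM with PAM+Zymosan, and Marcksl1 from 641 ± 74.9 to 339 ± 84.2 CPM.

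**Figure D5:**
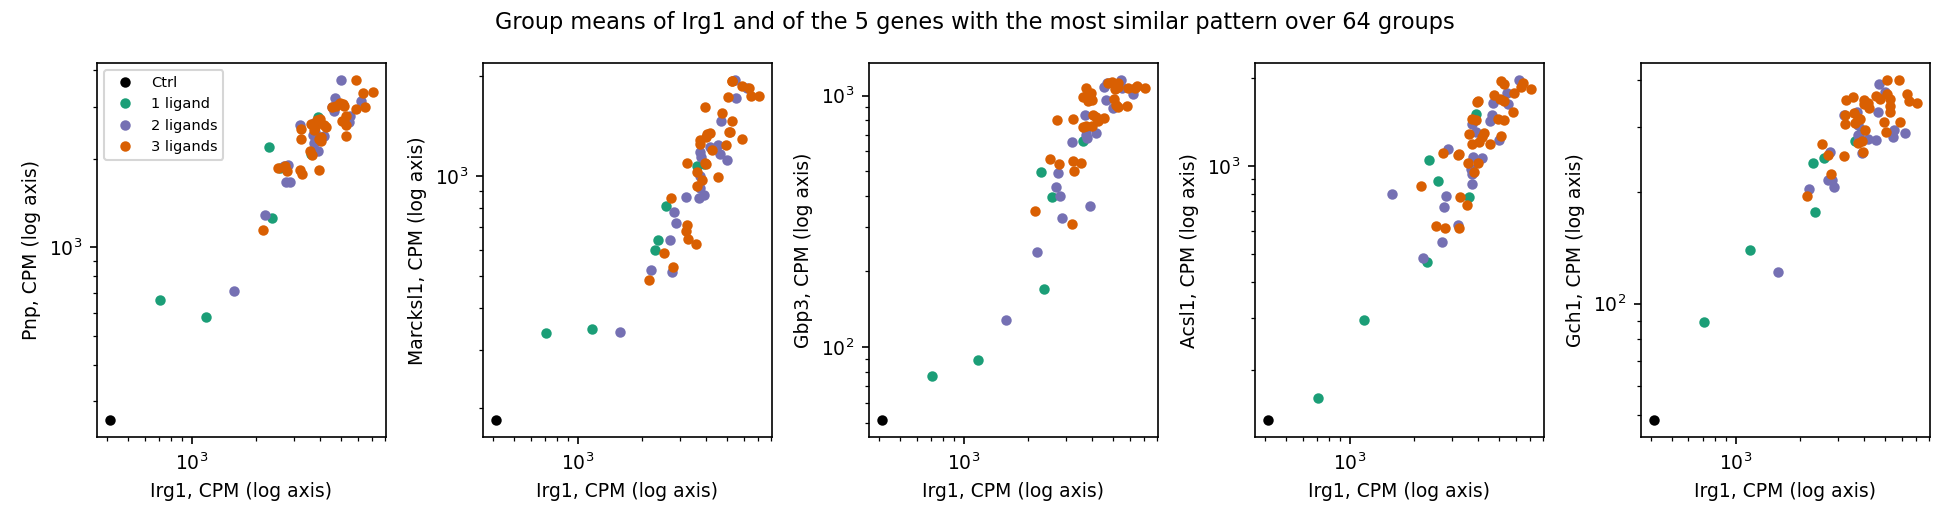
Group means of Pnp, Marcksl1, Gbp3, Acsl1 and Gch1 (CPM, vertical log axes) against those of Irg1 (CPM, horizontal log axis) in the 64 groups, coloured by the number of ligands. Ctrl lies at the lower left of each panel, and Pearson's r on the log2 scale is 0.94 for Pnp and 0.91 for the other 4.

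The genes around the itaconate pathway were read with the single ligands against Ctrl, by the same call rule. For the TCA cycle enzymes, 15 of 17 listed genes were tested, and 3 fell with LPS, 2 with CpGB and 1 with Zymosan, while 0 rose with any ligand. Over all genes 9.6% were called lower with LPS, 6.27% with CpGB and 1.82% with Zymosan. The median log2 fold change of the list with LPS was -0.60, against -0.06 over all genes. Idh3g, a subunit of the mitochondrial isocitrate dehydrogenase that makes NADH, fell with LPS, Zymosan and CpGB (log2 fold changes of -1.52, -1.53 and -1.39). Sdhb, a subunit of succinate dehydrogenase, fell with LPS (-1.15), whereas its partner Sdha, at 181 ± 53.2 CPM in Ctrl and 141 ± 34.1 CPM with LPS, did not pass with any ligand. The calls for Idh3g and Sdhb were lost without replicate 3 of all groups. Over the 7 ligands the list had 6 falls, against 2 without replicate 1, 2 or 3 of all groups and 14 with library size alone as the scaling. That scaling moved the median of all genes by -0.19 in these comparisons, and RLE factors by -0.12.

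Of 15 genes of citrate, isocitrate and pyruvate handling, 13 were tested, with 4 falls with LPS, 3 each with PAM and SeV, 2 each with cGAMP and CpGB and 1 with Zymosan, and no rise. Over all genes 5.89% were called lower with PAM, 5.13% with SeV and 5.91% with cGAMP. Idh1, the cytosolic isocitrate dehydrogenase that makes NADPH, fell with 5 ligands, most with LPS, from 238 ± 25.6 to 47.6 ± 12.1 CPM (log2 fold change -2.28, adjusted p = 5.13e-07). The fall with LPS kept its call without each replicate number in turn, and those with PAM, SeV, cGAMP and CpGB were lost without replicate 3. Mpc2, a subunit of the mitochondrial pyruvate carrier, fell with PAM, LPS, Zymosan and CpGB, with the calls for LPS and Zymosan lost without replicate 2. Slc25a10, a mitochondrial dicarboxylate carrier, had the lowest value of the list, with SeV (46.9 ± 9.04 CPM in Ctrl and 6.31 ± 5.47 CPM with SeV, log2 fold change -2.68), and that call was lost without replicate 1, 2 or 3. These are low counts in the shallow Ctrl libraries, and the 15 falls of the list over the 7 ligands became 6 to 9 without replicate 1, 2 or 3 of all groups. Of 11 listed genes of itaconate transport and breakdown, 10 were among the genes counted, and none of these had enough counts to be tested. Sugct was not found under that symbol.

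Among 15 Nrf2 target genes, 14 were tested, and Zymosan raised 6 of them, where 4.43% of all genes were called higher. Hmox1, which degrades heme, rose with Zymosan from 258 ± 68.3 to 1657 ± 140 CPM (log2 fold change 2.66, adjusted p = 1.32e-20) and was called with no other single ligand. Srxn1, which repairs peroxiredoxins (2.03), Gclc, a subunit of the enzyme that starts glutathione synthesis (1.37), and Slc7a11, a subunit of the cystine transporter (2.28), were also raised by Zymosan. PAM raised 3 members, CpGB 2 and LPS 1, where 8.01%, 10.8% and 14.6% of all genes were called higher. LPS lowered 4, where 9.6% of all genes were called lower. Slc7a11 rose with PAM, LPS and CpGB too (2.90, 1.47 and 1.87). Gclc fell with LPS, SeV and cGAMP (-2.02, -1.65 and -2.46), and Srxn1 with cGAMP (-1.66). Without replicate 3 of all groups, Gclc passed neither with Zymosan nor with LPS or cGAMP. With libraries thinned it passed with none of them either, at -0.014 with LPS, -1.40 with cGAMP and 2.55 with Zymosan. The list's median with Zymosan was 0.90 and with cGAMP -0.68, against 0.02 and -0.09 over all genes. Nfe2l2, which encodes Nrf2, was not called with any ligand (501 ± 25.8 CPM with Zymosan, 537 ± 42.6 in Ctrl).

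Of 14 proteins described as targets or sensors of itaconate, 12 were tested. Nlrp3, an inflammasome sensor, rose with 6 ligands, most with PAM (8.01% of all genes called higher), from 47.9 ± 34.1 to 289 ± 75.4 CPM (log2 fold change 2.61). Jak1, a kinase of cytokine receptors, rose with 4, of which the call with LPS was lost without replicate 2. Atf3, a stress-induced repressor, fell with PAM, from 626 ± 117 to 234 ± 14.7 CPM (-1.44). Over this list 15 of 84 comparisons of a member with a ligand were called higher and 1 lower, and over the Nrf2 list 12 and 9 of 98, where 8.7% of tests over all genes were called higher and 4.95% lower. Without replicate 3 of all groups the higher calls of this list were 9. With library size alone the higher and lower calls were 8 and 1 for this list and 10 and 15 for the Nrf2 list, and the lower calls of the Nrf2 list became 3 to 6 without replicate 1, 2 or 3 of all groups.

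Of 21 listed transcription factors, 20 were tested. Stat2, which carries interferon signals, rose with all 7 ligands, HMW included (log2 fold change 1.94 with HMW). Irf1, an interferon regulatory factor, rose with LPS, SeV and cGAMP (1.91, 2.56 and 2.55) and was at 93.3 ± 17.1 CPM with PAM against 107 ± 27.4 CPM in Ctrl. Nfkb1, a subunit of NF-kappa-B, rose with PAM, LPS and CpGB (1.34, 1.38 and 1.30), and Cebpb with PAM and Zymosan (1.07 and 1.16). With libraries thinned, Nfkb1 was at 0.34 with PAM and 0.87 with LPS, and Irf1 at 1.36 with LPS, and these calls were lost. Hif1a was not called with any ligand. Jun, an AP-1 subunit, had the lowest value of the list, -2.74 with LPS. Irg1 rose with PAM, where Irf1 did not pass, and with SeV and cGAMP, where Nfkb1 did not pass. Over the 64 groups, Pearson's r with Irg1 was 0.68 for Irf1 and 0.72 for Nfkb1. Differences between these genes, and a part of either factor in the Irg1 values, were not tested.

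Of 19 genes of inflammatory metabolism, 15 were tested and 12 rose with LPS, where 14.6% of all genes were called higher. Slc7a2, a transporter of cationic amino acids, rose with 6 ligands, most with LPS (from 148 ± 28.3 to 2069 ± 143 CPM, log2 fold change 3.83), and the prostaglandin synthase Ptgs2 with 4. Upp1, a uridine phosphorylase, had 0 counts in Ctrl and was at least 12.7-fold higher with LPS, taking 3 counts over the Ctrl group as the floor. Nos2, the inducible nitric oxide synthase, was called with LPS alone, at 61.8 ± 42.7 CPM. Cmpk2, a mitochondrial nucleotide kinase, was not called with PAM (292 ± 63.2 CPM, 192.4 ± 13.5 in Ctrl) and reached 5781 ± 424 CPM with cGAMP. Slc2a1, the glucose transporter, rose with Zymosan (1.00, 0.87 with RLE factors and so under the threshold) and fell with cGAMP (-1.22, -0.94 and not called without replicate 2).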

How the data were processed

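RNA from 64 groups of 3 libraries was counted as unique molecular identifiers (UMIs). The deposited table holds raw counts per gene, not normalised by the authors. Per the submitters' processing notes, BWA 0.7.15 and the mm10 build were used, and other steps are not given in the sources used here. All columns were matched to samples by name.

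Genes with enough counts by edgeR's filterByExpr (4720 of 23481) were fitted with edgeR 4.0.16 in R 4.3.3, with TMM factors, 1 coefficient per group and the quasi-likelihood test. All 64 groups share 1 estimate of spread (128 residual degrees of freedom). P-values were adjusted by Benjamini-Hochberg over all tested genes within a contrast. Levels are CPM scaled by TMM factors, and correlations used log2 CPM with a prior count of 2. The fit was tested on simulated data. No 2 libraries of a group were identical or differed by less than sampling noise (lowest chi-square per degree of freedom 1.11).

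Alternatives were RLE factors, library size alone, DESeq2 1.42.0, no filter, thinning to equal totals, adjustment over all contrasts of the same kind together, a replicate block and replicates left out. The gene lists, and the rule for named genes, were chosen with earlier results of these data known. The rule took Irg1, the 5 genes most and 2 least correlated with it, 14 genes by name, and from each list the 2 members called with the most ligands and the called member with the lowest fold change. Some genes the rule takes are not reported here.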

Additional observations from a re-analysis of the deposited data

Results flagged for a closer look

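Zymosan raised Irg1 against Ctrl (log2 fold change 1.50) and lowered it when added to PAM (-0.57), so its effect had opposite signs in the presence and absence of PAM. The difference between both effects, the pair interaction of PAM and Zymosan, was -2.07 on the log2 scale (SE 0.20, with an adjusted p of 6.45e-18 by edgeR). All 3 PAM+Zymosan libraries lay below all 3 PAM libraries, and all 3 Zymosan libraries above all 3 Ctrl libraries. Over the alternatives the interaction ran from -2.27 to -1.95.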

How the results depend on the processing

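Irg1 kept its calls with PAM, LPS, Zymosan, SeV, cGAMP and CpGB against Ctrl, and all 56 combinations theirs, under each alternative run, with log2 fold changes of 3.15 to 3.40 for LPS and 1.33 to 1.62 for Zymosan over left-out replicates.

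Thinning to equal totals lowered the number of calls most. It left 11 differences between single ligands, 20 higher additions (PAM 1, LPS 4, HMW 2, SeV 4, cGAMP 6, CpGB 2), 0 lower additions (LPS 0, Zymosan 0, CpGB 0), 2 positive three-way interactions, 1 pair above both ligands and 0 triplets above all pairs. In the lists, thinning left 0 lower TCA calls, 0 lower citrate calls, 1 higher call for targets or sensors, 3 higher and 1 lower for Nrf2 targets, 14 higher and 0 lower for transcription factors (41 and 5 before, over 20 genes and 7 ligands), and 28 higher and 0 lower for inflammatory metabolism (55 and 1 before, over 15 genes). Before thinning, 8.7% of tests over all genes were called higher and 4.95% lower.

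With library size alone, CpGB had 1 lower addition, triplets above all pairs were 0 (also 0 with no filter), and the lists had 14 lower TCA calls, 8 higher calls for targets or sensors, 15 lower Nrf2 calls and 5 lower calls for inflammatory metabolism (3 with RLE factors). Relative to TMM, the median of all genes against Ctrl moved by -0.16 (RLE) and -0.37 (library size) for combinations. PAM had 1 lower addition with DESeq2, with adjustment over all additions together and with the replicate block.

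Over left-out replicates, higher additions of cGAMP numbered 11 to 14. Lower additions numbered 5 to 12 in all, 5 to 10 for Zymosan, 0 to 1 for LPS, 0 to 1 for PAM and 0 to 0 for CpGB, and triplets above all pairs 0 to 1. Lower list calls numbered 2 to 2 (TCA), 6 to 9 (citrate), 3 to 6 (Nrf2) and 0 to 3 (inflammatory metabolism), and higher calls for targets or sensors 9 to 13.

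Uncalled differences changed sign, and the cause was not tested. Irg1 with PAM minus SeV was -0.27 thinned, -0.065 to 0.084 over left-out replicates. Irg1 with HMW added to PAM+cGAMP was -0.0072 thinned. The Irg1 interaction of PAM+HMW was 0.0013 with RLE factors and 0.23 thinned, and that of HMW+Zymosan -0.0073 to 0.43 over left-out replicates. The Irg1 three-way interaction of PAM+LPS+HMW was 0.12 with library size alone, 0.029 with no filter and -0.12 to 0.12 over left-out replicates. Sdha with LPS was -0.72 to 0.050 over left-out replicates. Nfe2l2 with Zymosan was 0.42 thinned and -0.14 to 0.013 over left-out replicates.

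Libraries of the same replicate number had a median correlation of 0.0081 in their deviations from group means (-0.29 to 0.18). In libraries this shallow, such a correlation cannot exclude that replicate numbers pair the samples. With the replicate block, 65 additions were higher and 14 lower, 16 pair interactions negative (HMW+CpGB among them, -0.69, adjusted p = 0.0328 by edgeR), HMW added to SeV called (0.48, adjusted p = 0.015 by edgeR) and 18 three-way interactions positive, and LPS was at 3.24 against Ctrl. In the shallowest library 46564 counts were available, and the 3 Ctrl libraries held few Irg1 counts (29 to 38), which limits small differences.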
